A study of Mus musculus with 16 samples.

Results

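The let-7 family was measured in the dorsal skin of hairless mice with or without the nuclear receptor PPARβ/δ, before and after chronic UVB irradiation. Its 9 members on the array were mmu-let-7a, mmu-let-7b, mmu-let-7c, mmu-let-7d, mmu-let-7e, mmu-let-7f, mmu-let-7g, mmu-let-7i and mmu-miR-98 (mmu for mouse, left off in most of what follows), the mature guide strands that carry the family's seed. They were taken by name from the 577 mouse miRNAs on the array, and their passenger strands were left out. The arrays were single-colour Agilent mouse miRNA arrays, with 1 array for each of 16 skin samples. The samples formed 4 groups of 4. They were wild-type skin without UV (WT no UV, Ppard+/+), knockout skin without UV (KO no UV, Ppard-/-), wild-type skin after 12 weeks of UVB (WT UV) and knockout skin after 12 weeks of UVB (KO UV). Irradiated mice received 70 mJ/cm2 of UVB 3 times a week. All groups shared the mixed SKH1-C57/Bl6-SV129 hairless background. Per the study's methods they were adult females, the genotypes were littermates, irradiated mice came from different litters, and the controls were of matched age. The array holds no probe for the Ppard mRNA, so the genotype labels could not be checked on it. The labels do not say whether each array was 1 mouse, so p-values measure the spread between these samples.

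Mature let-7 is cut from a hairpin precursor by Dicer and loaded into an Argonaute protein, where its seed pairs with sites in target mRNAs and lowers their output. The RNA-binding proteins LIN28A and LIN28B hold back let-7 processing in stem cells and early embryos, and mature let-7 accumulates as tissues differentiate. Well-known targets include Ras genes, Hmga2 and Myc, for which the family is described as a brake on growth. PPARβ/δ is a ligand-activated transcription factor that is active in keratinocytes and skin repair. The comparisons below ask whether losing it, irradiating the skin, or both went with other levels of let-7.

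The mature sequences below (RefSeq, GRCm38.p6, written 5′ to 3′) show how alike the members are, which matters for reading probes that have to tell them apart. Capitals mark the seed, bases 2 to 8.
let-7a: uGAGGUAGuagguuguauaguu
let-7b: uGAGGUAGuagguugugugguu
let-7c: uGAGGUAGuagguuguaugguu
let-7d: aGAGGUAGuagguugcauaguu
let-7e: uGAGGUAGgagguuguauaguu
let-7f: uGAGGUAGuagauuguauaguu
let-7g: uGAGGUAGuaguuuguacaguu
let-7i: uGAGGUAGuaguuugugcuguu
miR-98: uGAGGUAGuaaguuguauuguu
All 9 were 22 bases long, shared 1 seed and had the same base at 14 of 22 positions. Counted from 1 at the 5′ end and read from let-7a, let-7c differed by A19G, let-7e by U9G and let-7f by G12A. let-7b differed from let-7a by A17G and A19G, let-7d by U1A and U16C, let-7g by G12U and U18C, and miR-98 by G11A and A19U. let-7i was the farthest from let-7a, with G12U, A17G, U18C and A19U. Of the 36 pairs of members, 4 differed by 1 base and 10 by 2. The seed is rare, being held by 11 of 1679 mature mouse miRNAs in the RefSeq table (0.655%). Those 11 were the 9 members together with let-7k and miR-1961, neither of which is on the array under that name.

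The RefSeq table places these mature strands at 11 loci. let-7a (chr13:48538239-48538260), let-7f (chr13:48537889-48537910) and let-7d (chr13:48536078-48536099) lie together on the minus strand. let-7c (chr15:85706616-85706637) and let-7b (chr15:85707325-85707346) lie 709 bases apart within the long non-coding RNA gene Lncppara. A second let-7c locus (chr16:77599672-77599693) follows miR-99a. let-7e (chr17:17830366-17830387) lies between miR-99b and miR-125a within the span of Spaca6. A second let-7f locus (chrX:151912353-151912374) and miR-98 (chrX:151913229-151913250) lie within Huwe1. let-7g (chr9:106178846-106178867) lies within Wdr82, and let-7i (chr10:122985698-122985719) lies on the minus strand of chromosome 10. Identical mature strands from separate loci give the same signal, so the array cannot assign let-7c or let-7f to a locus. The same holds for let-7a, which has a second hairpin gene, Mirlet7a-2, on chromosome 9 in a cluster with Mir100 and Mir125b-1.

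Each member was read by 2 probes of 10 spots, and each probe covered 18 to 22 bases of the miRNA per the file headers. The signal of a miRNA was its total signal over these 20 spots. Signals were quantile normalized between arrays and are given as log2 values. Since probes differ in how brightly they bind, the level of one member was not set against that of another. How much of a member's signal came from members that differ by 1 base was not tested.

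One array stood apart. On KO UV replicate 4, 210 of 1730 spots of bright probes (12.1%) gave less than 50% of the median signal of their own probe, whereas the other 15 arrays had at most 1.15% of such spots. These dim spots lay in 1 patch in the middle of the array, and 23 of the 180 let-7 spots counted there were among them. let-7g lost 7 of its 20 spots, let-7b 5 and let-7e 3, while miR-98 lost none. Results on KO UV were therefore also computed from spot medians, which take the median of each probe's 10 spots, and with KO UV replicate 4 left out. On KO no UV replicate 4, the array with 1.15%, 22 spots were dim, 2 of them let-7 spots.

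**Figure D1:**
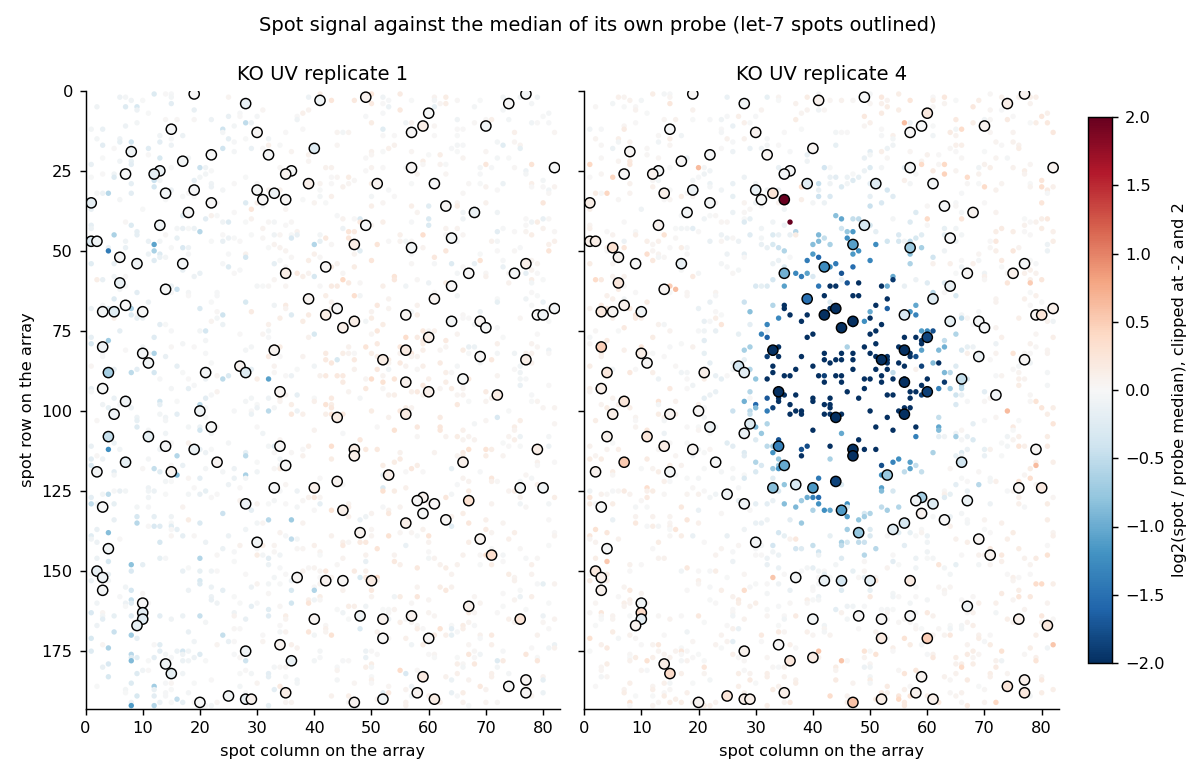
Each point is a spot of a bright probe, placed by its column and row on the array and coloured by log2 of its signal over the median of its probe on that array; outlined points are let-7 spots. KO UV replicate 1 is even, and KO UV replicate 4 has a central patch that holds most of its 210 dim spots.

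All arrays without UV were on 1 slide and all irradiated arrays on another, so UV and slide cannot be told apart. On the irradiated slide WT filled one row and KO the other, so genotype and row cannot be told apart there. The epidermal miRNAs miR-203 and miR-205 were detected on all 16 arrays, as the tissue label requires. Both rose with UV in KO, and 0 of 2 were called for UV in WT. The 4 skeletal muscle miRNAs were also detected on all arrays, and their summed signal was 40655 to 50330 in KO no UV but 20453 to 41168 in WT no UV. On the irradiated slide it was 19464 to 24489 for KO and 21899 to 25985 for WT. All 4 fell with UV in KO, where 29.8% of all miRNAs tested were called, and 0 of 4 were called for UV in WT. In skin as a whole, a change in cell make-up and a change of RNA per cell cannot be told apart, and the part of muscle or epidermis in the let-7 values was not tested.

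All 9 members were detected on all 16 arrays. Together they gave 15.8 to 21.7% of the summed signal of an array, with means of 17.7% ± 1.58 for WT and 17.6% ± 0.376 for KO without UV, and of 18.4% ± 0.776 for WT and 19.0% ± 2.11 for KO after UV (± SD, n = 4 each). These ranges overlapped in all 4 groups. Within a group, the pooled SD of the normalized values ran from 0.085 for let-7a to 0.20 for let-7g on the log2 scale. The median over the 228 miRNAs tested, which were not matched for rank, was 0.20. These SDs cannot show that the members were steady, since quantile normalization gives equal ranks the same value. For let-7i in WT UV the log2 SD was 0. With signals scaled by a 75th percentile instead (described below), let-7i read 3760 ± 288 there (± SD, n = 4). The spread of the other members was not compared between scalings.

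**Figure D2:**
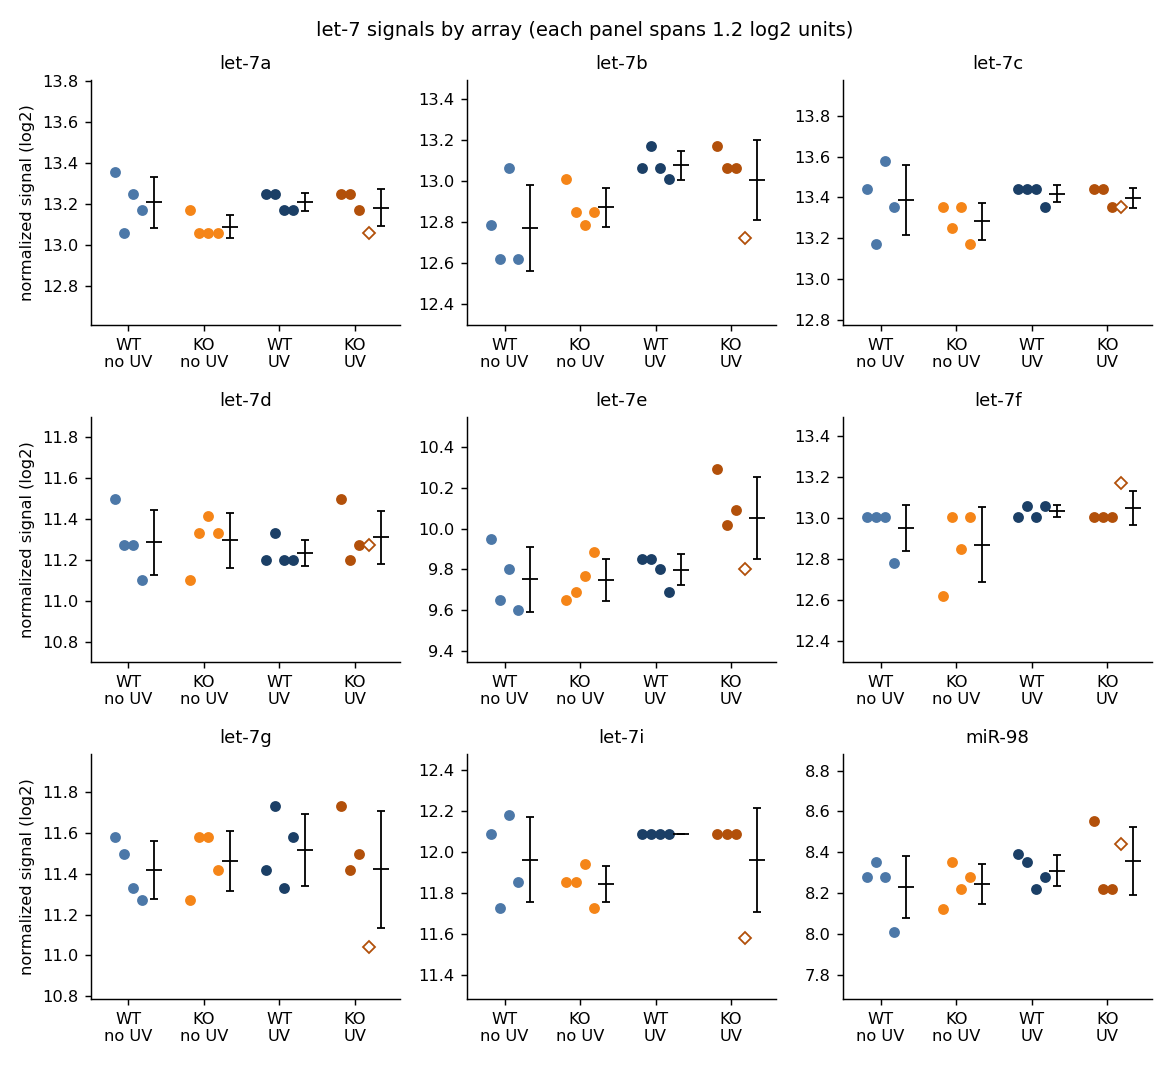
Normalized log2 signal of each member (y axis) on each of 4 arrays in 4 groups (x axis); bars give mean ± SD and the open diamond is KO UV replicate 4, the array with the dim patch. The groups overlap for every member, let-7e is high on 3 of 4 KO UV arrays, and the diamond is the lowest KO UV point for let-7a, let-7b, let-7e, let-7g and let-7i.

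The let-7 family changed little in any comparison. A linear model over all 16 arrays (limma) was fitted to 228 miRNAs, and a member was called at an adjusted p (Benjamini-Hochberg, over 228) below 0.05. In KO against WT without UV, 0 of 9 members were called, with 0 of 228 miRNAs called in all (0%). In KO against WT after UV, again 0 of 9 were called, against 2.19% of all miRNAs. UV in WT called 0 of 9 members, with 16.2% of all miRNAs called. UV in KO called 1 of 9, let-7e, with 29.8% of all miRNAs called. Spot medians also called let-7e alone there, with 26.8% of all miRNAs, and so did the fit without KO UV replicate 4, with 30.7%. The test of whether the UV effect differed between genotypes called 0 of 9, against 2.19%. At an unadjusted p below 0.05 the numbers of members were 0, 1, 1, 2 and 0 in the same order, and with the exact permutation test no member had an unadjusted p below 0.05 in any of the first 4 comparisons. With 4 arrays a group, the permutation test can give such a p only where the groups do not overlap. It therefore repeats the overlap result that follows and adds no second support. The 2 groups of arrays overlapped for all 9 members in these 4 comparisons, whereas 2.63%, 6.14%, 21.5% and 20.2% of all miRNAs had groups without overlap.

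The differences were small in size as well. Of the 45 differences (9 members in 5 comparisons), the largest was 0.31 on the log2 scale, or 1.24-fold, and 41 of 45 intervals at 95% included 0. The outer bounds of all the intervals were -0.56 and 0.55. The median size of a member's difference was 0.081 for genotype without UV, 0.071 for genotype after UV, 0.080 for UV in WT and 0.11 for UV in KO. Over all 228 miRNAs the medians of the same sizes were 0.13, 0.11, 0.20 and 0.26. For UV, 8 of 9 members had a positive difference in each genotype, with medians of 0.08 in WT and 0.11 in KO. When signals were scaled by the 75th percentile over only those miRNAs that every array detected (the 75th percentile scaling below), these medians were -0.06 and -0.05, while that scaling placed the median of all miRNAs at -0.10 and -0.04. By the 75th percentile of all miRNAs they were 0.06 and 0.05. On an invariant set, 79 miRNAs of steady rank chosen here outside the family, they were 0.04 and 0.03. The study's own invariant-set procedure was not rerun. The sign that most members shared thus changed under 1 of these 3 scalings. With quantiles taken within each slide, the members' medians were -0.11 in WT and -0.12 in KO. There the medians of all miRNAs were -0.15 and -0.12. Without any normalization the members' medians were 0.32 and -0.52, and those of all miRNAs 0.21 and -0.48.

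**Figure D3:**
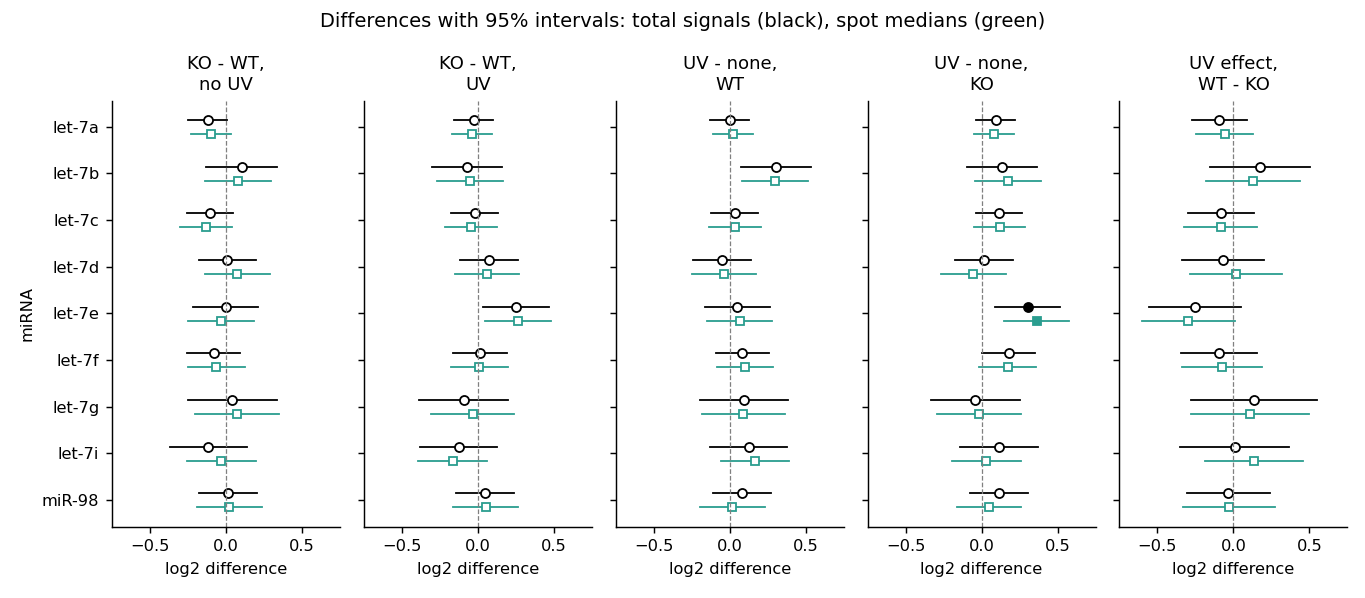
log2 difference (x axis) of each member (y axis) in the 5 comparisons, with 95% intervals from limma; black circles are total signals, green squares are spot medians, and filled symbols passed an adjusted p of 0.05. let-7e for UV in KO is the single filled row, at 0.30 from total signals and 0.36 from spot medians.

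mmu-let-7e was the only member called in the main fit, for UV in KO, where 29.8% of all miRNAs were called. Its log2 signals were 9.95, 9.65, 9.80 and 9.60 in WT no UV and 9.65, 9.69, 9.77 and 9.88 in KO no UV. After UV they were 9.85, 9.85, 9.80 and 9.69 in WT and 10.29, 10.02, 10.09 and 9.80 in KO. Replicates 1 to 3 of KO UV were above all 12 arrays of the other groups, and replicate 4, the array with the dim patch, lay among them. let-7e rose with UV in KO by 0.30 (SE 0.099, 95% interval 0.088 to 0.52, 1.23-fold, limma adjusted p = 0.0386, exact two-sided permutation p = 0.057, where the smallest possible is 0.029). The increase was 0.36 from spot medians (adjusted p = 0.0167) and 0.38 without KO UV replicate 4 (adjusted p = 0.0100). In WT the UV difference of let-7e was 0.05 (SE 0.099, adjusted p = 0.774). The 2 UV effects were not shown to differ, since the interaction was -0.25 (95% interval -0.56 to 0.049, adjusted p = 0.498). After UV, let-7e was 0.25 higher in KO than in WT (95% interval 0.037 to 0.47) without passing the test (adjusted p = 0.408), and the value was 0.33 without KO UV replicate 4 (adjusted p = 0.0945). Without UV the genotypes differed by -0.0028 (95% interval -0.22 to 0.21).

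The call for let-7e held under some ways of processing and not others. It passed in 9 of 16 refits with another scaling, filter or model, in which the difference ran from -0.12 without any normalization to 0.46. It lost its call when KO no UV replicate 1, 2 or 3 or KO UV replicate 1, 2 or 3 was left out, with differences of 0.22 to 0.32 and adjusted p-values of 0.0636 to 0.104. Both let-7e probes gave the increase in KO with UV. From spot medians they gave 0.38 (adjusted p = 0.0270) and 0.43 (adjusted p = 0.0388), fitted among all probes. In WT the same probes gave 0.14 and 0.22, which did not pass.

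**Figure D4:**
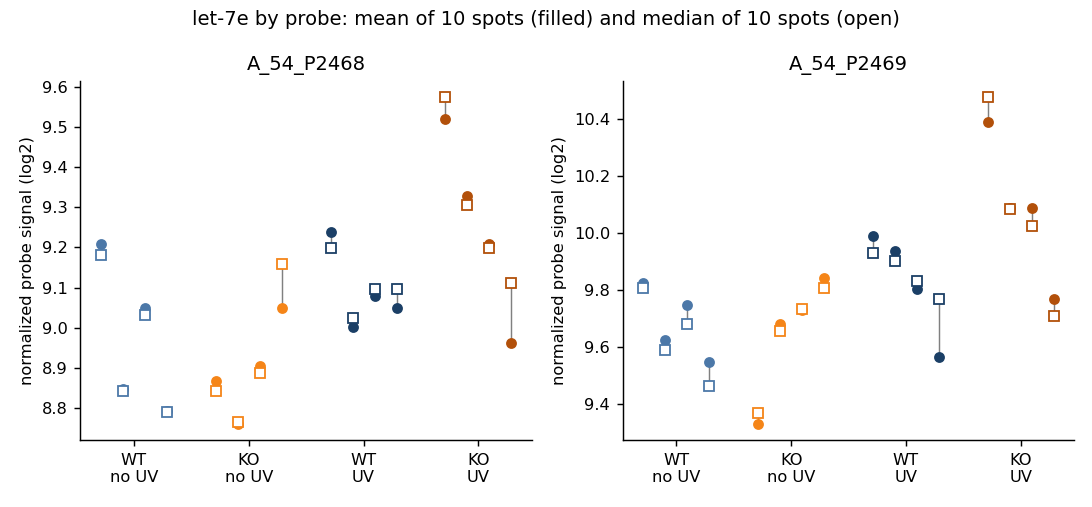
Normalized log2 signal of the 2 let-7e probes (1 panel each) by array and group, as the mean (filled circles) and the median (open squares) of 10 spots, joined for each array. In both panels KO UV replicates 1 to 3 are higher than all KO no UV arrays.

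The let-7e locus is shared with miR-99b, 172 bases before it, and miR-125a, 451 bases after it, a cluster that is transcribed together. miR-99b read 7.15, 7.27, 7.45 and 7.63 in KO no UV and 7.66, 7.66, 7.75 and 7.63 in KO UV. It rose with UV in KO by 0.30 (SE 0.094, adjusted p = 0.0329), which was 0.35 from spot medians (adjusted p = 0.0253) and 0.21 with the 75th percentile scaling (adjusted p = 0.225). miR-125a-5p differed by 0.14 (SE 0.14, adjusted p = 0.454). After UV, KO exceeded WT by 0.25 for let-7e, 0.21 for miR-99b and 0.30 for miR-125a-5p, and without UV the same differences were -0.0028, -0.0085 and -0.0020. None of the 6 passed the adjusted test. Under the 75th percentile scaling the 3 values after UV were 0.26, 0.25 and 0.33. The other cluster partners, miR-99a, miR-100 and miR-125b-5p, were called in 0 of the 5 comparisons. The 5 partners thus gave 1 call for UV in KO, where 29.8% of all miRNAs were called. They gave 0 elsewhere, where 0 to 16.2% of all miRNAs were called.

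**Figure D5:**
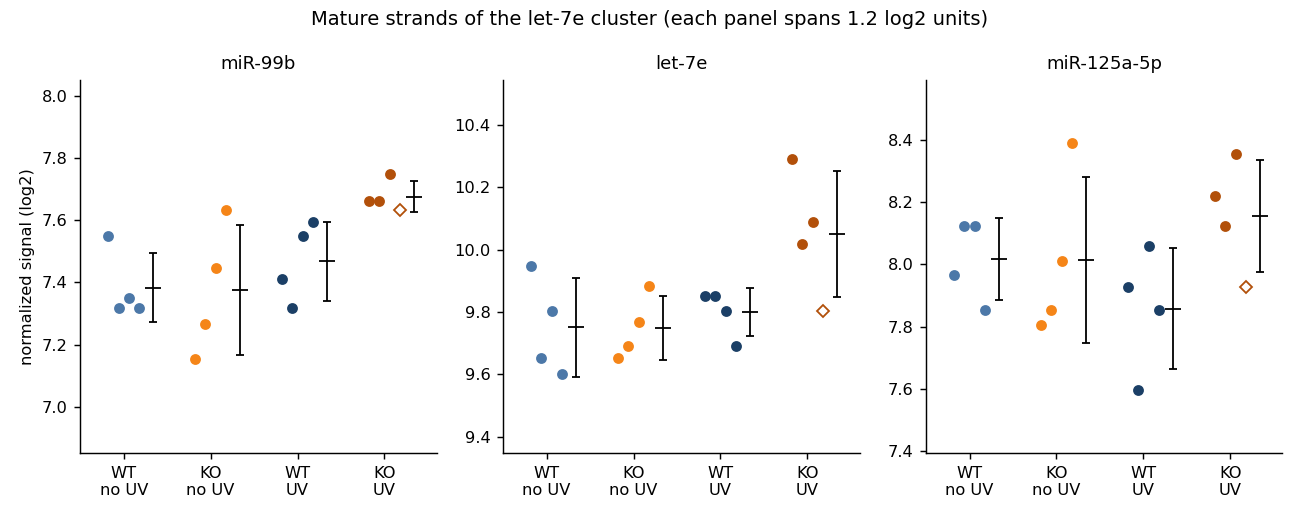
Normalized log2 signal (y axis) of miR-99b, let-7e and miR-125a-5p, the mature strands of the let-7e cluster, on each array by group (x axis); bars give mean ± SD, n = 4, and the open diamond is KO UV replicate 4. In all 3 panels the KO UV mean is the highest of the 4 groups, and single arrays overlap or touch those of KO no UV.

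mmu-let-7b had the largest difference of the 9 members. Its log2 signals in WT were 12.78, 12.62, 13.06 and 12.62 without UV and 13.06, 13.17, 13.06 and 13.01 after it. Those in KO were 13.01, 12.85, 12.78 and 12.85 without UV and 13.17, 13.06, 13.06 and 12.72 after it. Replicate 3 of WT no UV lay within the range of the irradiated arrays, so the groups overlapped. The UV difference in WT was 0.31 (SE 0.11, 95% interval 0.075 to 0.54, adjusted p = 0.0622) and did not pass. It did pass without WT no UV replicate 3 (0.41, adjusted p = 0.0144) and without KO UV replicate 4 (0.31, adjusted p = 0.0321, with 18.9% of all miRNAs called), an array that enters this comparison through the pooled spread. From spot medians it was 0.30 (adjusted p = 0.0505). Fitted among all probes, the 2 let-7b probes gave 0.13 and 0.24 from the mean of their spots. From spot medians they gave 0.11 and 0.28. None of these probe values passed (limma adjusted p from 0.0801 to 0.505). The 75th percentile scaling gave 0.01, where the median of all miRNAs was -0.10, and scaling by all miRNAs gave 0.14. In KO the UV difference was 0.13 (SE 0.11), or 0.22 without KO UV replicate 4. let-7c, its neighbour on chromosome 15, differs from let-7b by 1 base and read 13.17 to 13.58 over the 16 arrays. Its UV differences were 0.03 in WT and 0.11 in KO (SE 0.071 each). Its 2 probes gave unlike values, and the difference between them was not tested. From spot medians, one probe of let-7c passed for UV in WT (0.20, adjusted p = 0.0271) and in KO (0.17, adjusted p = 0.0484). The other gave -0.06 and 0.09. From the mean of its spots the first probe gave 0.15 and 0.08, which did not pass (adjusted p = 0.280 and 0.543). The other gave 0 and 0.04. By whole miRNAs, spot medians called 46 of 228 for UV in WT and 61 of 228 in KO.

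let-7a, let-7d and let-7f share a locus on chromosome 13, and let-7f and miR-98 share another on the X chromosome. let-7a read 13.06 to 13.36 over the 16 arrays. It was -0.12 in KO against WT without UV (SE 0.059, adjusted p = 0.343) and 0.01 with the 75th percentile scaling. let-7d read 11.10 to 11.50, and its 5 differences lay between -0.07 and 0.08. From the mean processed signal of all its spots, which keeps outlying spots, they were 0.90 for KO against WT after UV (adjusted p = 0.724), 0.83 for UV in KO (adjusted p = 0.303) and -0.88 for the interaction (adjusted p = 0.738). On KO UV replicate 4 a single let-7d spot was far above the rest of its probe, and from spot medians that probe gave 0.11, 0.14 and -0.10. let-7f read 12.62 to 13.17, with a UV difference in KO of 0.18 (SE 0.081, 95% interval 0.0035 to 0.35, adjusted p = 0.113). The 75th percentile scaling turned it to -0.05, and scaling by all miRNAs gave 0.05. miR-98 read 8.01 to 8.55, and its UV differences were 0.08 in WT and 0.11 in KO (SE 0.089 each). On the invariant set, miR-98 passed for UV in KO at 0.20 (adjusted p = 0.0313), and from spot medians it was 0.05 (adjusted p = 0.785).

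let-7g and let-7i, with no other member beside them in the genome, both read lowest on KO UV replicate 4. let-7g read 11.04 on KO UV replicate 4 and 11.42 to 11.73 on the other 3 KO UV arrays. Its UV difference in KO was -0.04 with that array and 0.09 without it, with an SE of 0.14 in the first case. let-7i read 11.58 on KO UV replicate 4 and 12.09 on each of the other 3, the same value as on all 4 WT UV arrays. Quantile normalization gives miRNAs of equal rank the same value, and let-7i held 1 rank on these 7 arrays. KO against WT after UV was therefore -0.13 for let-7i with KO UV replicate 4 (SE 0.12) and 0.00 without it. In spot medians, array 4 read 12.22 for let-7i against 12.64 to 12.76 on the other 3.

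For genotype without UV, both genotypes lay in both rows of the slide, so the difference could be taken within a row, with 2 arrays on each side. These within-row differences ran from -0.20 to 0.23 over the 9 members. 3 of 9 members had the same sign in both rows.

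The passenger strands, the other arm of each hairpin, which is mostly discarded, were near background. Of the 7 on the array, let-7c-2* was detected on 9 of 16 arrays and the other 6 on 0 to 2. Only let-7c-2* entered the test, with all its values at the floor of 4.28 and differences of 0. The mean profile of the 9 members over the 16 arrays was nearly flat, with a root mean square deviation from its own mean of 0.092 on the log2 scale. Of 219 other miRNAs, the nearest profiles were miR-151-5p (root mean square difference 0.088) and miR-342-5p (0.090). Next came 11 miRNAs at the floor on all arrays, let-7c-2* among them, tied at 0.092. miR-342-5p was itself nearly constant, with a difference of 0 or -0.017 in each of the 5 comparisons.

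Members with like sequences did not always have like profiles. From spot medians, let-7a and let-7c, which differ by 1 base, had a root mean square difference of 0.067, and the other 3 pairs that differ by 1 base had 0.14 to 0.17. Pairs that differ by 4 bases had 0.10 to 0.22. These are descriptions over 16 arrays that all pairs share.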

How the data were processed

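Total RNA of 16 dorsal skin samples (4 groups of 4) was labelled with Cy3 and read on 1 single-colour Agilent mouse miRNA array each. Per the file headers, the deposited intensity values were made with Agilent Feature Extraction 9.5.3.1, which subtracts a fitted background and sums spots into 1 total signal per miRNA. The authors also deposited a table of normalized log2 values, which served as an alternative. Their methods name an invariant-set and a quantile normalization followed by limma.

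Here, total signals were quantile normalized (limma 3.58.1, R 4.3.3), set to a floor of 19.4 and converted to log2. For the floor, the 5th percentile of detected signals was taken on each array, and then the median of these. Of 577 miRNAs, 228 were detected throughout 1 or more groups and were fitted with limma as 4 group means, with Benjamini-Hochberg adjustment over 228 in each comparison. Exact permutation tests were two-sided. The number of arrays limits the precision. Named were all 9 members, their passenger strands, 5 genome neighbours, marker lists and the 3 most alike miRNAs. The members and lists were chosen with earlier results of these data known. Marker miRNAs were listed for keratinocytes, skeletal muscle, red cells (erythrocytes), leukocytes, and fibroblasts with vessels. For UV in KO, 1 of 4 leukocyte, 1 of 2 erythrocyte and 2 of 4 fibroblast and vessel miRNAs tested fell, and 1 of the latter 4 rose. There 29.8% of all miRNAs were called. For UV in WT (16.2%), 1 of 4 leukocyte miRNAs fell, and of the 4 fibroblast and vessel miRNAs 1 fell and 1 rose. The interaction (2.19%) called 1 of these 4, and the comparisons of genotype called none of the markers. Arrays with the same replicate number were checked for pairing. Over 24 such pairs the correlation of deviations from group means ran from -0.35 to 0.38. In the WT arrays with and without UV all 4 pairs were at 0.13 to 0.32, and in each other comparison made here at least 1 pair was below 0.1. All 4 pairs of KO without UV and WT after UV, which were not compared, were at 0.17 to 0.38. Sequences and positions are from RefSeq (GRCm38.p6), matched by name for 9 of 9 members.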

Additional observations from a re-analysis of the deposited data

Results flagged for a closer look

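Of 35 tests of a group's highest or lowest array, 6 found an array far from the other 3 (Dixon's criterion, which flags about 1 in 20 groups by chance). KO UV replicate 4, the array with the dim patch, was low for let-7i (11.58 on the log2 scale) and high for let-7f (13.17). WT no UV replicate 4 was low for let-7f (12.78). KO no UV replicate 1 was high for let-7a (13.17), WT UV replicate 4 low for let-7c (13.36) and WT UV replicate 2 high for let-7d (11.33). In each of the 6 groups the other 3 arrays held 1 shared value, which quantile normalization gives where a miRNA has the same rank.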

How the results depend on the processing

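The counts of members called were 0, 0, 0, 1 and 0 in the order of the report. Without any normalization they were 7, 0, 1, 7 and 9, with 111, 5, 43, 130 and 138 of 228 miRNAs called in all. There the median of all miRNAs lay at 0.52, -0.25, 0.21, -0.48 and 0.77, and the members moved with it. Reversed here means that the sign turned and that the value was called before or after. For genotype without UV this reversed let-7a (0.55), let-7c (0.62), let-7e (0.55) and let-7f (0.58). For UV in KO it reversed let-7a (-0.53), let-7b (-0.53), let-7c (-0.42), let-7d (-0.58), let-7e (-0.12), let-7f (-0.52) and let-7i (-0.45). Signs also turned without a call, as for miR-98 with UV in KO (-0.36) and let-7i for genotype without UV (0.43). For the interaction it reversed let-7a (0.84), let-7c (0.83), let-7d (0.78), let-7e (0.60), let-7f (0.79) and miR-98 (0.73). With quantiles taken within each slide, 1 member was called for UV in WT, let-7a, reversed at -0.19, where the median of all miRNAs was -0.15, and 0 for UV in KO. Of 228 miRNAs, 59 were called there for UV in WT and 80 for UV in KO. For UV in KO, 0 members were called with either percentile scaling, without a detection filter, with the arrays of the comparison alone, with slide row as a covariate and at the study's own threshold (p below 0.001 and at least 1.5-fold). Of 228 miRNAs, the 75th percentile scaling called 55 there and scaling by all miRNAs 54. The arrays of the comparison alone called 27, slide row 31 and the study's threshold 16. Without a detection filter 33 of 577 were called. The exact permutation test also gave 0, for 0 of 228 miRNAs, and with a smallest p of 0.029 before adjustment it could call none unless most miRNAs reached that p. The invariant set gave 2 members, with 66 of 228 miRNAs called. Spot medians with KO UV replicate 4 left out, chosen after the data were seen, gave 1 for UV in WT, let-7b, with 46 of 228 miRNAs called. Leaving out each array in turn gave 0 to 1 member for UV in WT and for UV in KO, and 0 for each other comparison. Over all miRNAs, 228 to 236 of which were tested, these fits called 30 to 43 for UV in WT and 35 to 70 for UV in KO. They called 0 to 16 for genotype without UV, 5 to 7 for genotype after UV and 1 to 12 for the interaction. With the replicate number as a block the counts stayed at 0, 0, 0, 1 and 0, and in the WT arrays alone, where all 4 pairs correlated above 0.1, the block gave 0, with let-7b at 0.31 (adjusted p = 0.159). The block changed no call of a member. Of 228 miRNAs it called 0, 4, 40, 61 and 1 in the 5 comparisons, and 1 in the WT arrays alone. With 4 arrays a group and 1 slide for each UV state, differences much smaller than the interval widths given were not detectable. The causes of these changes were not tested.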
